A study of Mus musculus with 6 samples.

Results

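Kidney transcripts of 9 genes that make, trigger, stabilise or dissolve fibrin were examined in 6 mice, of which 3 were wild type and 3 carried a mutation on both alleles. The 9 were the fibrinogen chains Fga, Fgb and Fgg, tissue factor (F3), the protein Z-dependent inhibitor Serpina10, the A subunit of factor XIII (F13a1), the plasminogen activators Plau and Plat, and the urokinase receptor Plaur. They were taken by symbol from the array's annotation, among 14817 genes tested, and each gene is represented by its brightest probe. Every animal gave 1 single-colour CodeLink oligonucleotide array, made from a piece of frozen kidney whose vessels had been flushed with saline. The groups are called wild type and mutant here, and the labels name them WT and KO. No source used here names the mutated gene or tells the animals' strain, age or sex, so the mutated transcript could not be checked. In mutant kidney 5 of the 9 genes rose, namely all 3 fibrinogen chains, F3 and Serpina10, and 0 fell. Among all tested genes 5.67% rose and 1.59% fell by the same rule. The 9 genes were chosen with earlier results of these data known.

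Fibrinogen is a hexamer of paired alpha, beta and gamma chains that circulates in plasma and is made chiefly by hepatocytes as an acute-phase protein, while injured epithelia, including kidney tubules, are known as further sites of its transcription. Tissue factor on cell surfaces starts the coagulation cascade, thrombin at its end converts fibrinogen to fibrin, and factor XIII cross-links the fibrin. Plasmin, released from plasminogen by tissue-type (Plat) or urokinase-type (Plau) activator, dissolves it again.

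The 3 chain genes lie side by side on chromosome 3 in the RefSeq annotation (GRCm38.p6), with Fgg first, then Fga, then Fgb on the opposite strand with 1 long non-coding RNA gene between Fga and Fgb. RefSeq promoter windows, from 250 bases before to 50 bases after an annotated start, were found for 6 of the 9 genes. Serpina10, Plau and Plat had none. The windows of the 3 chains and of F3 are shown because these 4 genes rose together and have known regulatory elements close to their starts. Capitals mark CTGGGAA, the core of the type II interleukin-6 response element, in the chain windows, and TGANTCA, the AP-1 motif, in the F3 window. They lie at chr3:83007474-83007773 on the plus strand for Fgg, chr3:83025903-83026202 on the plus strand for Fga, chr3:83049814-83050113 on the minus strand for Fgb and chr3:121723287-121723586 on the plus strand for F3.
Fgg: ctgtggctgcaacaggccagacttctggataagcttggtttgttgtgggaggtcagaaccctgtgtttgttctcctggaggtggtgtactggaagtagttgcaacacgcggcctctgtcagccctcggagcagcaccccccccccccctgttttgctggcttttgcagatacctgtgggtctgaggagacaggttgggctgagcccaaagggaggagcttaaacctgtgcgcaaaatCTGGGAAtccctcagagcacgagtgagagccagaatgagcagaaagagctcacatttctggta
Fga: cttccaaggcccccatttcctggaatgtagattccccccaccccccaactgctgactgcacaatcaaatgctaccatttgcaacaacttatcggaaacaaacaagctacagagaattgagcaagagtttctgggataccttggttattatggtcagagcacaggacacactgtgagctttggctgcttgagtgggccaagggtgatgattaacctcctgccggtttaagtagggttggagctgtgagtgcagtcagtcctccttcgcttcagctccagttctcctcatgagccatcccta
Fgb: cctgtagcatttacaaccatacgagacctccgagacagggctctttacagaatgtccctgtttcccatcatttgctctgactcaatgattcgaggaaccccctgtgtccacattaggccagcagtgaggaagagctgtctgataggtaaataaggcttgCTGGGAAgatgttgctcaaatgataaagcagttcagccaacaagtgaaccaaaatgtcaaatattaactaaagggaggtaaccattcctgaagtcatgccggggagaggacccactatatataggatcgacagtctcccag
F3: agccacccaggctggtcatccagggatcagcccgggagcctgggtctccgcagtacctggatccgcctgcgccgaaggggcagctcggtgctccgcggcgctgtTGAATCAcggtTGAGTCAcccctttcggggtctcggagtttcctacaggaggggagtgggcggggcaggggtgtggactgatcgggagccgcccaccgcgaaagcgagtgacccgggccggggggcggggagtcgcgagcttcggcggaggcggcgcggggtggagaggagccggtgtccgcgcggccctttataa

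CTGGGAA stood at position -13 from the annotated start of Fgg and at position -91 of Fgb, counted to the first base of the match, and was not found in the Fga window. On either strand, 11.1% of the 32851 windows in the table held it. GTTAAT, part of the site of hepatocyte nuclear factor 1, was present in the Fga window at -43 and in the Fgb window at -29, against 7.1% of all windows. TTGCNNAA, the C/EBP motif (10.8% of windows), matched in Fga at -135, in Fgb at -80 and in Plaur at -59, and TTCNNNGAA, the STAT motif (8.3%), in Fga at -234 and in Fgb at -162. AP-1 motifs, held by 7.81% of windows, stood at -146 and -135 of F3, at -173 of Fgb and at -69 of Plaur. The windows of F13a1 held none of these motifs. Both strands were searched for each motif, and no match overlapped another. These matches describe letters in the windows, and binding was not measured.

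Intensities are given on the deposited linear scale relative to the median of the array. Group levels and differences are log2 values, with differences taken as mutant minus wild type and followed by the SE of the limma fit. A level of 1.50 times the array median (0.59 in log2), set from the shape of the low values after they had been seen, serves as a low-signal limit. It was exceeded by 37.7% to 41.8% of an array's values. Markers of kidney were present, with Umod of the thick ascending limb between 167 and 263 and Slc34a1 of the proximal tubule between 83.9 and 92.9 in wild type. Replicate 1 of both genotypes differed from the rest in sex-linked transcripts: Xist stood at 4.64 and 7.98 there and at most 0.862 elsewhere, and Eif2s3y at most 0.162 there and at least 8.05 elsewhere. The effect of leaving these arrays out is given beside the counts.

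All 3 fibrinogen chain transcripts were higher in mutant kidney, with the largest fitted difference for Fgg. Fgg encodes the gamma chain, which carries sites for platelet and leukocyte integrins. Its intensity was 0.733, 0.693 and 0.905 in the 3 wild-type kidneys and 7.79, 4.03 and 7.72 in the 3 mutants. Every wild-type array lay below the low-signal limit and every mutant array above it. The group levels were -0.37 ± 0.20 log2 in wild type and 2.64 ± 0.55 in mutants (SD, n = 3 each), which makes Fgg at least 4.15-fold higher (limma, adjusted p = 7.63e-05). By fitted difference, 3.01 ± 0.33 log2 units, Fgg ranked 21 of 14817 genes.

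Fga, the alpha chain from which thrombin releases fibrinopeptide A, was above the limit wherever it had a value. Its intensity was 8.40 and 7.56 in wild-type replicates 1 and 3, and 23.7, 15.6 and 15.3 in the mutants. Wild-type replicate 2 had no value and took no part in the fit. The lowest mutant was above the highest wild type, and the difference was 1.16 ± 0.20 log2 units, or 2.24-fold, with n = 2 wild-type and 3 mutant arrays (limma, adjusted p = 0.00415).

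Fgb encodes the beta chain, the source of fibrinopeptide B. Its intensity was 3.45, 2.73 and 2.94 in wild type and 6.18, 4.92 and 6.18 in mutants. The groups were apart without overlap and each was tight, yet the fitted shift was the smallest of the 3 chains at 0.92 ± 0.20 log2 units, or 1.89-fold (limma, adjusted p = 0.0167). Leaving out any of 4 arrays (replicates 2 and 3 of wild type, 1 and 3 of mutants) ended this call, at an adjusted p between 0.0511 and 0.0768, as did cyclic loess at 0.0503, while the difference stayed between 0.77 and 1.03 in every fit tried. The shifts of the 3 chains were not tested against each other.

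**Figure D1:**
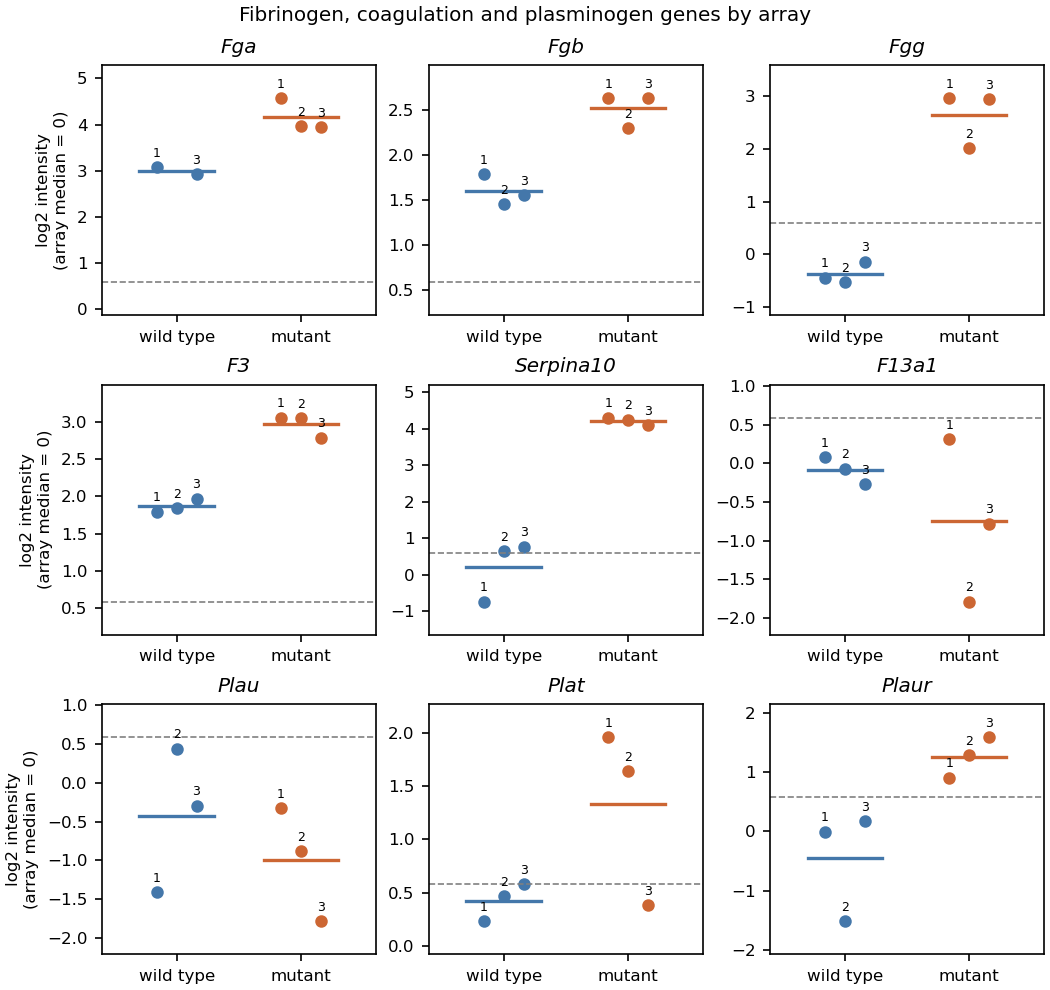
Log2 intensity relative to the array median (vertical axes, scaled separately) of each of the 9 genes in wild-type and mutant kidney. Points are single arrays numbered by replicate, solid lines are group means and the dashed line is the low-signal limit of 0.59; Fga, Fgb, Fgg, F3, Serpina10 and Plaur show all mutants above all wild types, and F13a1 and Plau lie below the limit throughout.

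F3, the receptor for factor VII that starts coagulation, was above the limit on all 6 arrays. Wild-type kidneys had intensities of 3.46, 3.59 and 3.92, and mutants 8.30, 8.29 and 6.90. No mutant came near the wild-type range, and the difference of 1.10 ± 0.18 log2 units, or 2.14-fold, was large beside SDs of 0.09 and 0.15 (limma, adjusted p = 0.00201).

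Serpina10 encodes a plasma serpin that blocks factor Xa with protein Z as cofactor, and factor XIa without it. The intensity was 0.602, 1.56 and 1.71 in wild type, with replicate 1 below the low-signal limit and the other 2 just above it. In mutants the values were 19.6, 18.9 and 17.0, the tightest mutant group of the 9 genes (SD 0.11 log2). Its mutant mean exceeded the low-signal limit 12.3-fold. With 2 wild-type arrays above that limit, this factor is not a lower bound on the rise. The fitted difference was 3.98 ± 0.32 log2 units (limma, adjusted p = 6.24e-06), which ranked 4 of 14817. Another Serpina10 probe was dim, at 0.335, 0.471 and 0.283 in wild type and 1.40, 0.579 and 1.70 in mutants. Its groups did not overlap either, but only mutant replicate 3 was above the limit, and its difference of 1.64 ± 0.55 did not pass (limma, adjusted p = 0.124).

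F13a1, the transglutaminase subunit of factor XIII, stood at 1.06, 0.952 and 0.832 in wild type and at 1.24, 0.0939 and 0.582 in mutants. All 6 values were below the low-signal limit and the groups overlapped, so no fold is given (limma, adjusted p = 0.624).

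None of the 3 genes of plasminogen activation passed the test, although Plaur missed it narrowly. Plaur encodes the membrane-anchored receptor that holds urokinase at the cell surface. Wild-type arrays read 0.997, 0.349 and 1.13, all below the limit, and mutant arrays 1.88, 2.45 and 3.02, all above it. The groups did not overlap, with a fitted difference of 1.71 ± 0.47 (limma, adjusted p = 0.0533), and in 5 of 19 other fits the adjusted p lay between 0.0319 and 0.0451, at 0.0402 in that without wild-type replicate 3.

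Plat, the tissue-type activator known from endothelium, read 1.18, 1.38 and 1.50 in wild type and 3.88, 3.12 and 1.31 in mutants. Mutant replicate 3 lay within the wild-type range while the other mutants were clearly above it. The difference was 0.90 ± 0.40 (limma, adjusted p = 0.271). In 19 other fits it ranged from 0.49 to 1.37. Plat passed only in the fit without mutant replicate 3, at 1.37 (limma, adjusted p = 0.0471).

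Plau, the urokinase-type activator, read 0.376, 1.36 and 0.815 in wild type and 0.795, 0.543 and 0.244 in mutants. No array exceeded the low-signal limit and the groups overlapped (limma, adjusted p = 0.707). A difference in urokinase transcript was not detectable at these signals.

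Counted together, 5 of 9 genes rose and 0 fell by limma with adjustment over all probes. Their median difference was 1.10 log2 units, against 0.08 over all tested genes. Because the 9 genes were chosen with earlier results of these data known, this contrast only describes them. Of the 8 genes with a value on all 6 arrays, 5 had every mutant above every wild type, as did 17.8% of the genes measured on all arrays. With only replicates 2 and 3 of each genotype, which leaves out the arrays with high Xist, 4 genes rose, and Fga could not be tested there because a single wild-type value remained. Without an intensity trend in the variance only Fgg and Serpina10 passed, with adjusted p of 0.170 for Fga, 0.118 for Fgb and 0.0666 for F3. Replicates are different animals, so the SE holds biological and technical variation.

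**Figure D2:**
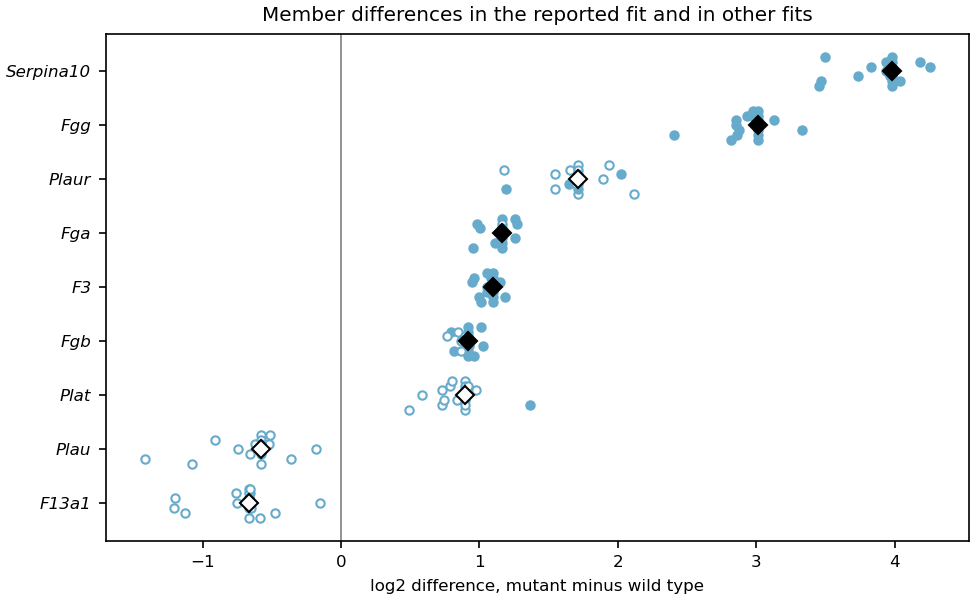
Log2 difference, mutant minus wild type (horizontal axis), of each of the 9 genes in the reported fit (black diamonds) and in the other fits (blue circles: other scalings, floors, filters and variance models, and arrays left out). Filled symbols have an adjusted p under 0.05 and open symbols do not; Fgg and Serpina10 are filled throughout, and the sign of each gene is the same in every fit shown.

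Other genes of coagulation and fibrinolysis moved in both directions. Of 36 further genes, 30 had a probe of their own and 23 were tested, of which 3 rose and 2 fell, against the 5.67% and 1.59% of all tested genes. Their median difference was 0.19 log2 units. The 7 with a probe that were too dim to be tested, including plasminogen (Plg), prothrombin (F2) and factor VII (F7), had intensities of at most 1.08 and never reached the low-signal limit.

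Among procoagulant factors and cofactors, 0 of 8 tested genes rose and 1 fell. This was F13b, the carrier subunit of plasma factor XIII, which was bright in wild-type kidney. It read 40.1, 36.4 and 37.0 in wild type and 24.0, 12.3 and 18.8 in mutants, without overlap, and fell by 1.10 log2 units (SE 0.20; limma, adjusted p = 0.00433). F13b was far above the low-signal limit in both genotypes, where the A subunit F13a1 was not. Vwf, which tethers platelets and carries factor VIII, differed by 0.42 ± 0.24 and did not pass (limma, adjusted p = 0.410).

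Among 8 tested anticoagulant genes 1 rose and 1 fell. Pros1 encodes protein S, cofactor of activated protein C, and read 2.06, 1.39 and 1.92 in wild type and 7.37, 5.66 and 4.96 in mutants. The lowest mutant was well above the highest wild type, for a rise of 1.75 ± 0.25 log2 units, or 3.35-fold (limma, adjusted p = 8.37e-04). Proc, which encodes protein C itself, went the other way, from 21.7, 24.4 and 20.5 in wild type to 12.98, 12.9 and 14.6 in mutants. It fell by 0.72 log2 units (SE 0.13; limma, adjusted p = 0.00555). Proz, encoding the protein Z that serves Serpina10, differed by 0.19 ± 0.41, and the tissue factor pathway inhibitors Tfpi and Tfpi2 by -0.19 ± 0.22 and -0.31 ± 0.23, all without passing.

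Of 4 tested genes for plasminogen, its inhibitors and its receptors, 2 rose and 0 fell. These were Anxa2 and S100a10, whose products form the annexin A2 tetramer, a cell-surface assembly site for plasminogen and its tissue-type activator. Anxa2 read 9.09, 12.99 and 11.6 in wild type and 24.2, 26.8 and 33.2 in mutants, a rise of 1.32 ± 0.17 log2 units (limma, adjusted p = 2.58e-04). For S100a10 the values were 8.29, 7.74 and 6.17 against 11.98 and 15.1, with mutant replicate 3 missing, and the rise was 0.87 ± 0.19 (n = 3 and 2; limma, adjusted p = 0.0173). The S100a10 call was lost without wild-type replicate 3 (adjusted p = 0.0772) and after quantile normalization (0.0545). Serpinf2, the alpha-2-antiplasmin gene, differed by -0.47 ± 0.25 and the plasminogen receptor gene Plgrkt by 0.33 ± 0.23, and neither passed. Of the thrombin receptor genes 0 of 3 passed, with F2r at 0.53 ± 0.44 and both F2rl2 and F2rl3 below the low-signal limit in their group means. The calls of F13b, Proc, Anxa2 and S100a10 did not hold without an intensity trend, where Pros1 alone of these 5 passed.

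**Figure D3:**
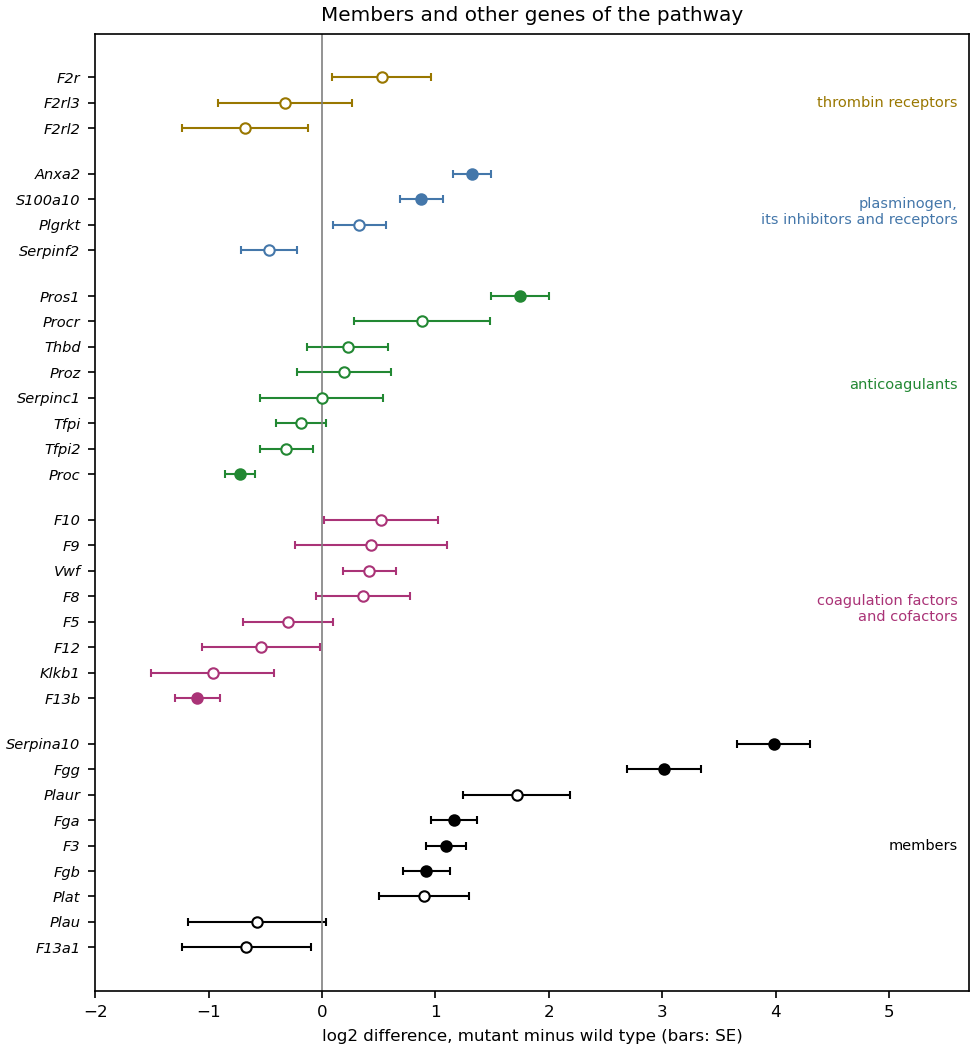
Log2 difference, mutant minus wild type (horizontal axis), with SE bars for the 9 genes (black) and for the 23 other tested genes of the pathway, grouped by role. Filled points passed an adjusted p of 0.05; they are Serpina10, Fgg, Fga, F3 and Fgb among the 9, and Pros1, Anxa2 and S100a10 (higher) and F13b and Proc (lower) among the rest.

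Fibrinogen genes are classical targets of the interleukin-6 family, whose receptors share the gp130 chain encoded by Il6st. Of 20 acute-phase and interleukin-6 response genes, 16 had a probe and 11 were tested. Of these 3 rose and 0 fell, against the 5.67% and 1.59% of all tested genes. Il6st read 11.9, 14.1 and 12.2 in wild type and 32.8, 23.6 and 23.0 in mutants, a rise of 1.04 ± 0.16 log2 units (limma, adjusted p = 0.00129). The other Il6st probes were below the low-signal limit on every array. Among them, the tested probe had every mutant below every wild type, at -1.22 ± 0.52, and did not pass (limma, adjusted p = 0.246). The remaining probe was too dim to be tested. Osmr, the oncostatin M receptor that pairs with gp130, read 1.29, 0.0825 and 0.503 against 4.28, 3.996 and 3.06 and thus rose at least 2.49-fold (limma, adjusted p = 0.00444).

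Serpina3n, an acute-phase serpin, read 0.544, 0.0924 and 0.557 in wild type and 4.61, 3.52 and 3.11 in mutants. With all wild-type arrays below the limit and all mutants above it, it rose at least 2.46-fold (limma, adjusted p = 4.69e-04). Socs3, a feedback inhibitor of this pathway, differed by 1.33 ± 0.43 without passing (limma, adjusted p = 0.110), and neither did Cebpb, at 1.55 ± 0.43 (adjusted p = 0.0559, and 0.0417 and 0.0420 without wild-type replicate 2 and 3). Cebpd differed by 0.60 ± 0.22 and Hp, the haptoglobin gene, by 1.42 ± 0.58, and neither passed. On each of 3 Stat3 probes every mutant lay above every wild type, as in 17.8% of the genes measured on all arrays. The brightest, which stands for the gene, gave 0.35 ± 0.15 and did not pass (limma, adjusted p = 0.245). Another gave 0.96 ± 0.35 (0.153) and the other 1.17 ± 0.22 (0.00612), so that only the last passed. Il6 itself was dim on all arrays, between 0.0297 and 0.622. Saa3, Orm1, Apcs and Itih4 were also too dim to be tested and never reached the low-signal limit. Saa2 (-0.56 ± 0.62), Il6ra (-0.09 ± 0.62) and Cp (0.96 ± 0.56) did not pass, with both group means below the limit. Il6st and Osmr did not pass without an intensity trend, at adjusted p of 0.107 and 0.0932. Fgl1, a fibrinogen-like gene, differed by 0.27 ± 0.22 and did not pass.

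**Figure D4:**
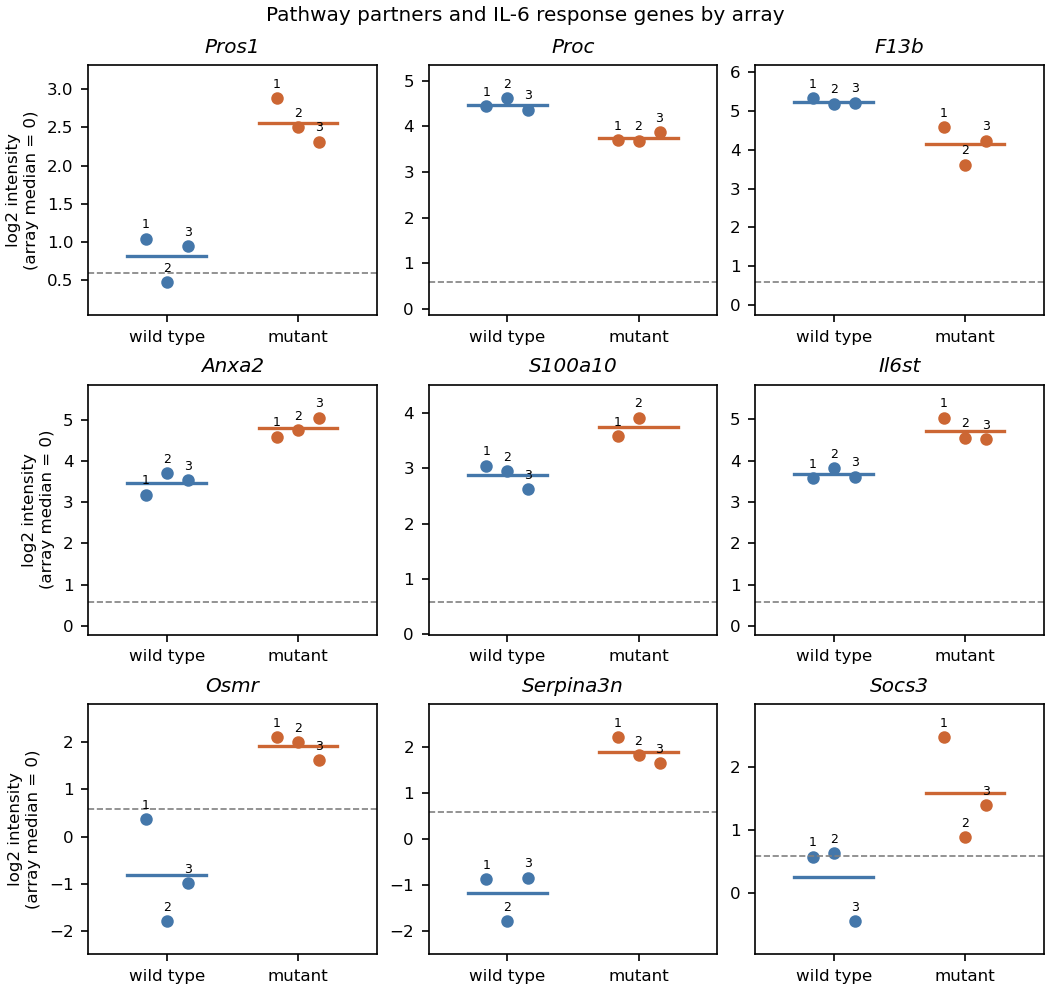
Log2 intensity relative to the array median (vertical axes, scaled separately) of 5 pathway genes that passed and of 4 acute-phase and interleukin-6 response genes. Points are single arrays numbered by replicate, solid lines are group means and the dashed line is the low-signal limit of 0.59; Proc and F13b are lower in every mutant, and the others shown are higher in every mutant that has a value.

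Cell types that could carry these transcripts were set beside them by marker lists, in intensities summed over each list. Hepatocyte markers, the chief source of fibrinogen, ranged from 75.7 to 141 in wild type and from 96.9 to 131 in mutants over 7 genes. The groups overlapped only through wild-type replicate 2, since the other wild types summed to 85.2 and 75.7, below every mutant. Most of each sum was Ttr, the transthyretin gene, at 57.7, 119 and 59.4 in wild type and 98.3, 81.5 and 113 in mutants. Its difference was 0.38 ± 0.24 (limma, adjusted p = 0.480), and 0.72 without wild-type replicate 2 (adjusted p = 0.0294). That was the only 1 of 19 other fits in which Ttr passed. Albumin (Alb) stood between 0.518 and 2.72 in wild type and between 0.652 and 1.93 in mutants, close to the low-signal limit, and Ahsg differed by 0.16 ± 0.25. Apoc3 differed by -0.38 ± 0.24 and Apoa1 by -0.28 ± 0.29, and neither passed. Over the tested markers only 2 differences were positive, and the median was -0.20 log2 units. Of 6 tested hepatocyte markers 0 rose and 1, Apoa2, fell, against 5.67% and 1.59% of all tested genes. The Apoa2 call was lost in 5 of 19 other fits. Its limma adjusted p was 0.0591 to 0.0713 when wild-type 1, wild-type 3 or mutant 2 was left out. With only replicates 2 and 3 it was 0.0993, and without an intensity trend 0.0845. Platelet markers summed to 5.24 to 6.41 in wild type and 5.31 to 6.58 in mutants over 7 genes, of which 0 of 7 passed.

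Macrophages, a known site of F13a1, Plau and Plaur, had markers that summed to between 39.8 and 45.9 in wild type and between 173 and 256 in mutants. Of 10 tested, 7 rose and 0 fell. Among all tested genes 5.67% rose and 1.59% fell, which also stands beside the marker counts that follow. The 7 were Cd14 (2.42 ± 0.17), C1qa (2.26 ± 0.16), C1qb, C1qc, Ctss, Tyrobp and Lyz2, while Adgre1 and Itgam were below the limit on every array. Fibroblast and pericyte markers went from a range of 78.8 to 129 to one of 354 to 404, with 6 of 7 higher (Dcn, Col1a1, Col3a1, Col1a2, Pdgfrb and Pdgfra, the last 3 of which did not pass without an intensity trend). Endothelial markers, of interest for Plat, ranged from 58.5 to 65.5 in wild type and from 72.3 to 86.3 in mutants, with 1 of 6 tested higher (Tie1, 0.74 ± 0.19, a call that ended in 7 of 19 other fits, with adjusted p of 0.0945 to 0.141 when wild-type 1, wild-type 3, mutant 1 or mutant 2 was left out). Proximal tubule markers went from 389 to 418 down to 239 to 275, with 3 of 8 lower (Slc22a8, Slc34a1 and Cubn). Without wild-type 3 or mutant 2, Slc34a1 had an adjusted p of 0.0507 or 0.0558, and Cubn of 0.0712 or 0.0554. Without an intensity trend none of these 3 passed, at adjusted p of 0.140 for Slc22a8, 0.158 for Slc34a1 and 0.215 for Cubn. Over the 3 erythroid markers with a probe the sums overlapped (8.44 to 15.2 against 2.67 to 10.7). The part of these cell types in the changes of the 9 genes was not tested, and in whole-kidney RNA a change in the number of cells of a type cannot be told apart from a change in transcript per cell.

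**Figure D5:**
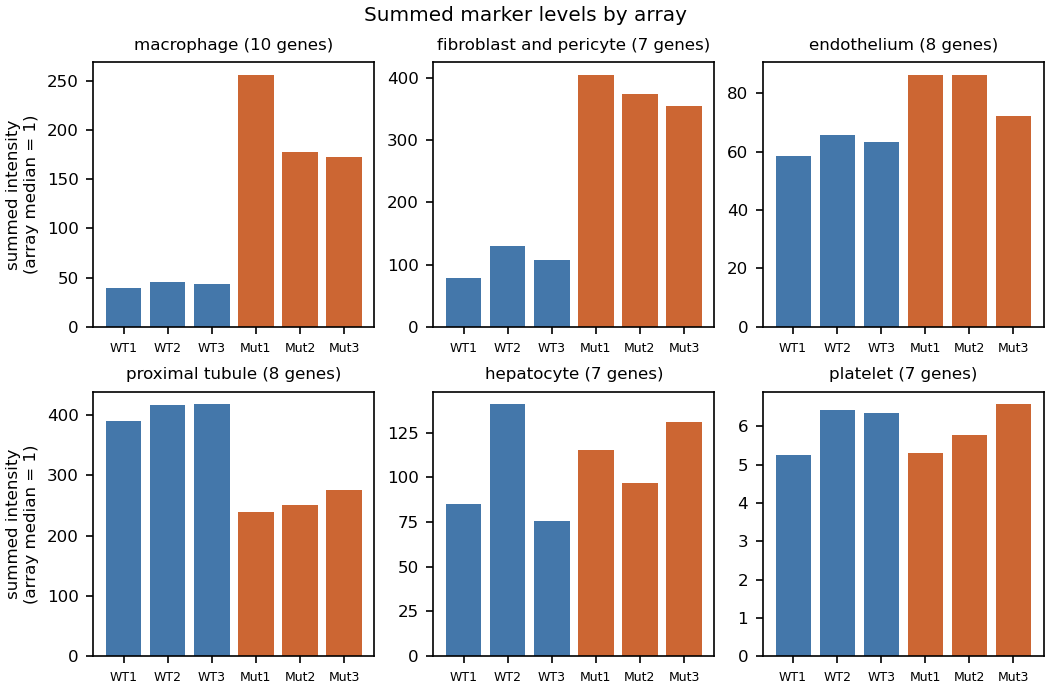
Summed intensity, relative to the array median, of the markers of 6 cell types on each of the 3 wild-type (blue) and 3 mutant (orange) arrays. Macrophage and fibroblast sums are higher and proximal tubule sums lower in every mutant. Hepatocyte sums, which are mostly Ttr, overlap through wild-type replicate 2 only, and platelet sums overlap.

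The mean profile of Fgb and Fgg over the 6 arrays was most closely followed by Mphosph6, Lxn, Septin9, Tmem29 and Guca2a, with Pearson correlations between 0.992 and 0.997 among 9104 genes above the low-signal limit in their mean. Fga was left out of that profile for its missing value. Their differences between genotypes, given without a test because a profile that was higher in every mutant picked them, were 0.39 log2 units for Mphosph6, 1.66 for Lxn, a carboxypeptidase inhibitor, 0.71 for Septin9, 0.40 for Tmem29 and 0.98 for Guca2a, the guanylin precursor. With 6 arrays that share genotype and scaling, such correlations only describe these samples.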

How the data were processed

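Per the labels' protocols, column-purified RNA from perfused kidney was labelled with biotin and hybridised to CodeLink arrays, 1 per animal. The authors deposited 1 linear intensity per probe and array. The values show array medians of 0.994 to 0.997 and a minimum of -1.02, so they are background-subtracted and scaled; which program did this, and how, is not given in the sources. The number of arrays limits precision.

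Each array was divided by its median, values at or below 0 became missing, values under 0.290 (the 10th percentile of positive values) were raised to this floor before taking log2. Probes needed a value on 2 arrays per genotype (34445 did), and the dimmest 25% were dropped, leaving 25834. Symbols came from the platform annotation, and the brightest tested probe stood for a gene. Genotypes were compared across all probes with limma 3.58.1 (R 4.3.3; lmFit, eBayes with intensity trend, two-sided, Benjamini-Hochberg), and the code was tested on simulated data. "Rose" and "fell" mean an adjusted p under 0.05. Where a genotype's mean lay below the low-signal limit (mode plus 3 times the spread below it), folds are the brighter mean over the limit. Alternatives covered scaling, floor, filters, variance, threshold, a replicate block and arrays left out. The 9 genes and all lists were chosen with earlier results of these data known. Genes named were the 9, those of each list that passed, and some of the 4 with the smallest p in a list. Others (such as Socs3, Stat3, Cebpd, Hp, Proz, Tfpi, Plg, Il6 and Alb) were named after their values had been seen.

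Same-numbered arrays of the genotypes deviated together weakly, with correlations of 0.020 to 0.072. These lay above the correlations of differently numbered arrays, at -0.070 to 0.003. Replicate 1 of both genotypes also shared its pattern of sex-linked transcripts. The numbers were not treated as pairs in the reported fit, and a fit with the number as a block is given below.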

Additional observations from a re-analysis of the deposited data

How the results depend on the processing

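The number of the 9 genes that rose was 4 to 6 under every alternative except one, and 0 fell in any. With no intensity trend 2 rose, other pathway genes numbered 1 higher and 0 lower, and 191 probes passed in place of 1392. At an adjusted p under 0.01, 678 probes and 4 of the 9 genes passed, and 905 and 4 when replicate 1 of both genotypes was left out (only replicates 2 and 3). With arrays left out in turn, the 9 genes gave 4 to 5 calls, pathway genes 2 to 3 higher and 2 lower, and all probes 743 (without mutant replicate 2) to 1230, with 881 without mutant replicate 1. Fga could not be tested without wild-type replicate 1 or 3. With the replicate number as a block 1856 probes and 6 of the 9 genes passed, Plaur added, although the numbers were not shown to pair the animals. Folds taken over the low-signal limit moved with it. At 2 spreads in place of 3, Fgg was at least 5.31-fold higher. The mutant means of Serpina10 and Plaur then stood 15.7-fold and 2.04-fold above the limit. Without the floor 5 of the 9 genes rose, as in the reported fit. F13a1 and Plau gave no signal above the limit on any array.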
